A study of Chlorocebus aethiops with 36 samples.

Results

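The MHC class II presentation set described here held 8 genes: HLA-DRA, HLA-DPA1, HLA-DPB1, HLA-DQA1, HLA-DMA, HLA-DMB, CD74 and CIITA, out of 19775 genes with a probe set of their own. Every probe set whose platform annotation names one of these symbols was taken, which gave 19 of the 54675 probe sets on the array. Of the 19, 18 were annotated to 1 gene and 1 to HLA-DQA2 and HLA-DQA1 together, and that shared probe set is given apart. A probe set is a group of short probes whose brightness is summarised into a single value. The 8 genes were chosen from earlier results of these arrays, and which contrast led to the choice is not recorded, so the levels and calls below are a description and support nothing by themselves.

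Liver RNA of 12 male African green monkeys was hybridised to a human array from Affymetrix, the HG-U133 Plus 2.0, with each animal sampled at week -5, week 4 and week 12. In the treated arm 6 animals received anti-miR-33, an oligonucleotide that binds and blocks the microRNA miR-33, at 5 mg/kg under the skin, in injections that were at first more than weekly and later weekly. In the control arm 6 animals received a control anti-miR by the same route, dose and schedule. Week -5, called baseline below, is labelled as untreated, and the animals were on normal chow. Week 4 fell within the treatment on chow, and week 12 followed 8 weeks on a high carbohydrate, moderate cholesterol diet with treatment continued, so that both arms carried an oligonucleotide at weeks 4 and 12. The labels of baseline arrays name no arm, and the arm was read from the animal's identifier. The week 4 array of control animal 1 carries the label of the high carbohydrate diet, unlike the other week 4 arrays. No animals without an oligonucleotide were analysed here, so elapsed time, injection, repeated sampling and, at week 12, diet cannot be told apart in any change shared by both arms. Animals are numbered 1 to 6 within each arm.

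Class II molecules are paired alpha and beta chains on the cell surface that show peptides from engulfed proteins to CD4 T cells. The chains are made in the endoplasmic reticulum with the invariant chain, CD74, in their groove, and in endosomes HLA-DM removes its last fragment and helps a peptide to bind. Their genes are switched on together by the transactivator CIITA, which interferon gamma induces. In the liver they are known mainly from Kupffer cells, dendritic cells, B cells and sinusoidal endothelium.

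Values were log2 and had been summarised by RMA, a method that corrects background, normalises between arrays and combines probes. Array medians lay between 4.42 and 4.51 log2. The highest value was 13.8 on the week 12 array of control animal 5, 14.28 on the week 4 array of anti-miR-33 animal 5 and 14.8 on that of control animal 6, and lay between 14.98 and 15.07 on the other arrays. Correlations between arrays ran from 0.971 to 0.993 across probe sets, which are not independent replicates. The tissue label fitted its markers, since the mean of 15 hepatocyte genes lay between 11.9 and 12.6 in all arrays. Control probe sets for GAPDH and ACTB read each transcript near its 3′ and its 5′ end, and the gap between the ends is larger where RNA is degraded. The mean gap was 2.57 ± 0.43 log2 in the 12 baseline arrays, 1.94 ± 0.41 in those of week 4 and 1.83 ± 0.16 in those of week 12 (SD).

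Of the 19 probe sets, 13 lay at or above the median of all probe sets (4.46 log2 on average over the arrays) and were tested together with all other such probe sets, 27304 in all, and each of the 8 genes kept at least 1. The 6 below it were 1 of HLA-DPA1, 1 of HLA-DPB1, 2 of HLA-DQA1, 1 of CD74 and 1 of CIITA. Just inside the filter was the lower of the CIITA probe sets tested, with a mean of 4.67, and just outside it was a probe set of HLA-DPA1 with 4.40. Where a gene had several probe sets, values are from the one of highest mean unless another is named. Human probes met monkey RNA, and a mismatch can lower a probe set's value, so levels are compared between groups and never between probe sets. Whether a mismatch differed between animals, and so between the arms, was not tested. HLA genes resemble each other, and a probe set may also catch a close relative, so the attribution of each value to 1 HLA gene is uncertain.

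Across both arms, class II transcripts were higher at week 12 than at baseline for HLA-DRA, HLA-DMA, HLA-DMB, CD74 and the shared HLA-DQA probe set, while HLA-DP, the single-gene HLA-DQA1 probe set and CIITA did not pass the test. From baseline to week 12, 6 of the 13 probe sets rose and 0 fell at an adjusted p under 0.05 (limma, Benjamini-Hochberg over all 27304). The background for that comparison was wide: 24.1% of all probe sets were called, 10.2% higher and 13.9% lower. From baseline to week 4, 4 of 13 rose and 0 fell, against 35.4% of all called, 16.5% higher and 18.9% lower. From week 4 to week 12, 4 of 13 rose and 0 fell, against 25.5% of all called, 12.3% higher and 13.2% lower. The median change of the 13 was 0.35 from baseline to week 12, 0.09 from baseline to week 4 and 0.23 from week 4 to week 12, with medians over all probe sets within 0.01 of 0. In bulk tissue, a change in the number of cells of a type and a change in RNA per cell cannot be told apart, whether values rise or fall.

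**Figure D1:**
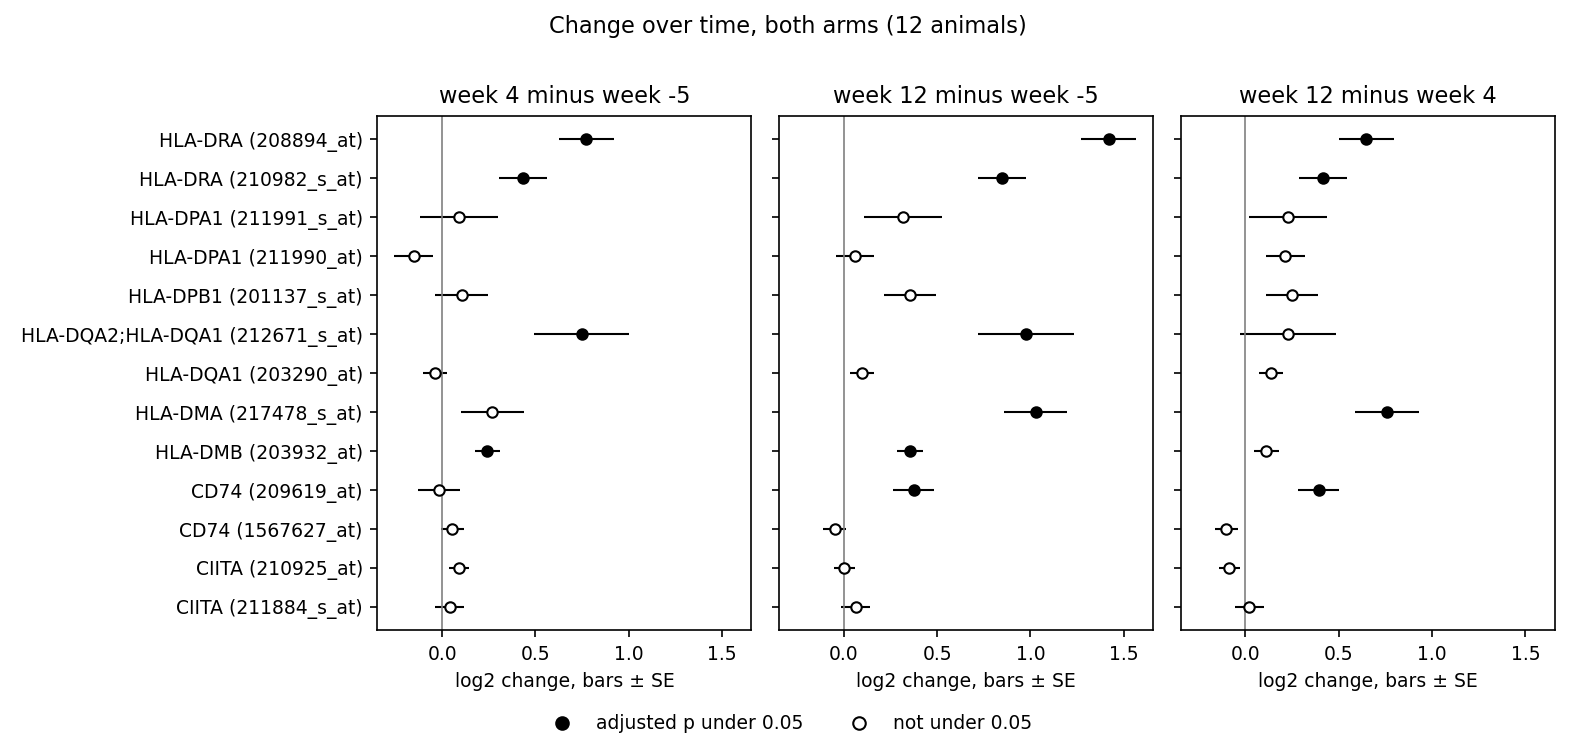
Log2 change between times (x axis, with standard errors as bars) for the 13 tested class II probe sets (y axis), both arms together, 12 animals. Probe set identifiers stand in brackets, and filled points passed an adjusted p under 0.05. HLA-DRA and HLA-DMA lie farthest right at week 12 against week -5, at 1.42 and 1.03, and both CIITA probe sets lie near 0.

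HLA-DRA encodes the alpha chain of HLA-DR, the class II molecule most often used as a marker of antigen-presenting cells. The lowest, median and highest values of the 12 arrays were 6.10, 6.49 and 6.99 in baseline arrays, 6.66, 7.34 and 7.66 in week 4 arrays, and 7.03, 7.78 and 9.31 in week 12 arrays. All 12 week 12 arrays lay above all 12 baseline arrays, a separation shown in that direction by 23 of the 27304 probe sets (0.0842%). HLA-DRA was lowest at baseline in 12 of 12 animals and highest at week 12 in 11 of 12, the exception being anti-miR-33 animal 6. The change from baseline was 0.77 ± 0.15 at week 4 (SE, adjusted p = 9.52e-05) and 1.42 ± 0.15 at week 12 (adjusted p = 8.49e-09), a 2.68-fold increase. By size of increase to week 12 it stood 12th of 27304 probe sets. The further rise from week 4 to week 12 was 0.65 ± 0.15 (adjusted p = 0.00136). The other HLA-DRA probe set changed by 0.43 ± 0.13, 0.85 ± 0.13 and 0.41 ± 0.13 over the same intervals, all called, and was also lowest at baseline in 12 of 12 animals. Higher values in 12 of 12 animals were found for 2.73% of all probe sets from baseline to week 4 and for 1.66% from baseline to week 12.

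The beta chains that pair with HLA-DRA were listed with the other class II chains. Of the 9 genes on that list, 5 had a single-gene probe set above the filter. From baseline to week 12, 1 of those 5 rose and 0 fell, beside 10.2% of all probe sets called higher and 13.9% called lower. That gene was HLA-DRB1, a DR beta chain, with 0.62 ± 0.14 (adjusted p = 0.00124). The single-gene probe set of HLA-DRB4, another DR beta chain, was not called, with means of 5.51 at baseline and 5.65 at week 12. Probe sets annotated to several DRB genes stood nearer to HLA-DRB1. The one shared by HLA-DRB4 and HLA-DRB1 rose by 0.68 ± 0.13, and a pair that also lists HLA-DQB1 by 0.91 ± 0.13 and 0.84 ± 0.16. Each had an adjusted p under 0.05. HLA-DOA and HLA-DOB, whose product restrains HLA-DM, differed by -0.02 ± 0.05 and 0.07 ± 0.06 and were not called on the probe set of highest mean. A further HLA-DOA probe set was called with 0.21 ± 0.08 (adjusted p = 0.0461), so the HLA-DOA probe sets disagreed.

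HLA-DMA and HLA-DMB encode the chains of HLA-DM, the peptide exchange factor. HLA-DMA had lowest, median and highest values of 6.45, 7.09 and 7.61 in baseline arrays, 6.74, 7.37 and 8.01 in week 4 arrays, and 7.19, 7.91 and 9.79 in week 12 arrays. The ranges of the times overlapped, yet the value was above the animal's own baseline in 12 of 12 animals at week 12 and in 10 of 12 at week 4. Its change was 0.27 ± 0.17 at week 4 (adjusted p = 0.223, not called) and 1.03 ± 0.17 at week 12 (adjusted p = 2.50e-05), or 2.04-fold, with 0.76 ± 0.17 of it between week 4 and week 12 (adjusted p = 0.00127).

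HLA-DMB moved less. Its lowest, median and highest values were 6.16, 6.47 and 6.70 in baseline arrays, 6.40, 6.72 and 7.05 in week 4 arrays, and 6.60, 6.72 and 7.23 in week 12 arrays. It was 0.24 ± 0.07 higher at week 4 (adjusted p = 0.00537) and 0.35 ± 0.07 higher at week 12 (adjusted p = 0.000165), in 11 of 12 animals at week 12. The step from week 4 to week 12 was 0.11 ± 0.07 and not called. HLA-DMB therefore passed the test at week 4 and HLA-DMA did not, but the difference between the pair was not tested.

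CD74, the invariant chain, was not called at week 4 and rose by week 12. Its lowest, median and highest values were 6.00, 6.73 and 6.97 in baseline arrays, 6.32, 6.70 and 7.11 in week 4 arrays, and 6.61, 7.04 and 8.01 in week 12 arrays, with wide overlap. The change was -0.02 ± 0.11 at week 4 (adjusted p = 0.923), 0.38 ± 0.11 at week 12 (adjusted p = 0.0106) and 0.39 ± 0.11 between week 4 and week 12 (adjusted p = 0.00845). It was above its own baseline in 9 of 12 animals at week 12. The second tested CD74 probe set was not called, and its changes over the same intervals were 0.05 ± 0.06, -0.05 ± 0.06 and -0.10 ± 0.06. The third lay below the filter and was 0.25 ± 0.24 higher at week 12 (mean ± SD over 12 animals), with no test.

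HLA-DPA1 and HLA-DPB1, the chains of HLA-DP, were not called over time. HLA-DPA1 changed by 0.09 ± 0.21 to week 4 and 0.32 ± 0.21 to week 12 (adjusted p = 0.766 and 0.295), and by -0.15 ± 0.10 and 0.06 ± 0.10 on its second tested probe set. HLA-DPB1 changed by 0.10 ± 0.14 and 0.35 ± 0.14, with an adjusted p of 0.064 at week 12, and was above its baseline in 9 of 12 animals. With the animal as a fixed replicate block in limma, HLA-DPB1 (adjusted p = 0.0150) and HLA-DPA1 (adjusted p = 0.0399) at week 12 passed the threshold. In that fit 8 of 13 members were called from baseline to week 12, beside 6817 of all 27304 probe sets.

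HLA-DQA1 encodes the alpha chain of HLA-DQ. Its tested single-gene probe set changed by -0.04 ± 0.06 to week 4 and 0.10 ± 0.06 to week 12 and was not called. The probe set shared with HLA-DQA2 was 0.75 ± 0.26 higher at week 4 (adjusted p = 0.0219) and 0.98 ± 0.26 higher at week 12 (adjusted p = 0.00432), in 12 of 12 animals and in 11 of 12 with 1 unchanged. The higher of the HLA-DQA1 probe sets below the filter was 0.12 ± 0.37 and 0.01 ± 0.27 above baseline (mean ± SD over 12 animals). The probe sets of this gene therefore did not move alike, and which transcript each one reads in this monkey was not tested.

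CIITA, the transactivator of the other members, did not pass the test at any time. Its lowest, median and highest values were 5.29, 5.53 and 5.77 in baseline arrays, 5.40, 5.62 and 5.75 in week 4 arrays, and 5.34, 5.48 and 5.77 in week 12 arrays. Its change to week 12 was 0.003 ± 0.055 (adjusted p = 0.976) and 0.06 ± 0.08 on its second tested probe set. Over all arrays the first spanned only 0.48 log2. Whether either probe set reads CIITA in this monkey was not tested, so a change in CIITA may have gone unseen. Among 9 listed transcription factors that act with CIITA on class II promoters, 8 were tested, and from baseline to week 12 0 rose and 1 fell. Of all probe sets 10.2% were called higher and 13.9% lower, so these counts lay near the background. The gene called was the coactivator CREBBP at -0.29 ± 0.07 (adjusted p = 0.00110, limma).

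The gap between 3′ and 5′ control probe sets was smaller at both later times than at baseline, and so moved with every change from baseline. With it as a covariate, 1186 probe sets (4.34%) were called from baseline to week 12 in place of 6578, and 6 of 13 members were still called. HLA-DRA was then 1.18 ± 0.20 higher (adjusted p = 0.000270), HLA-DMA 1.10 ± 0.24 (adjusted p = 0.00480), HLA-DMB 0.33 ± 0.10 (adjusted p = 0.0389), CD74 0.52 ± 0.15 (adjusted p = 0.0403) and the shared HLA-DQA probe set 1.35 ± 0.36 (adjusted p = 0.0219). From baseline to week 4, with the covariate, 6519 probe sets (23.9%) and 2 of 13 members were called, HLA-DRA with 0.57 ± 0.19 (adjusted p = 0.0230) and the shared HLA-DQA probe set with 1.06 ± 0.33 (adjusted p = 0.0179), while HLA-DMB with 0.22 ± 0.09 was not (adjusted p = 0.0658). From week 4 to week 12, where the RNA value hardly differed, 4 of 13 members were called with or without it, beside 6963 (25.5%) of all probe sets with it.

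**Figure D2:**
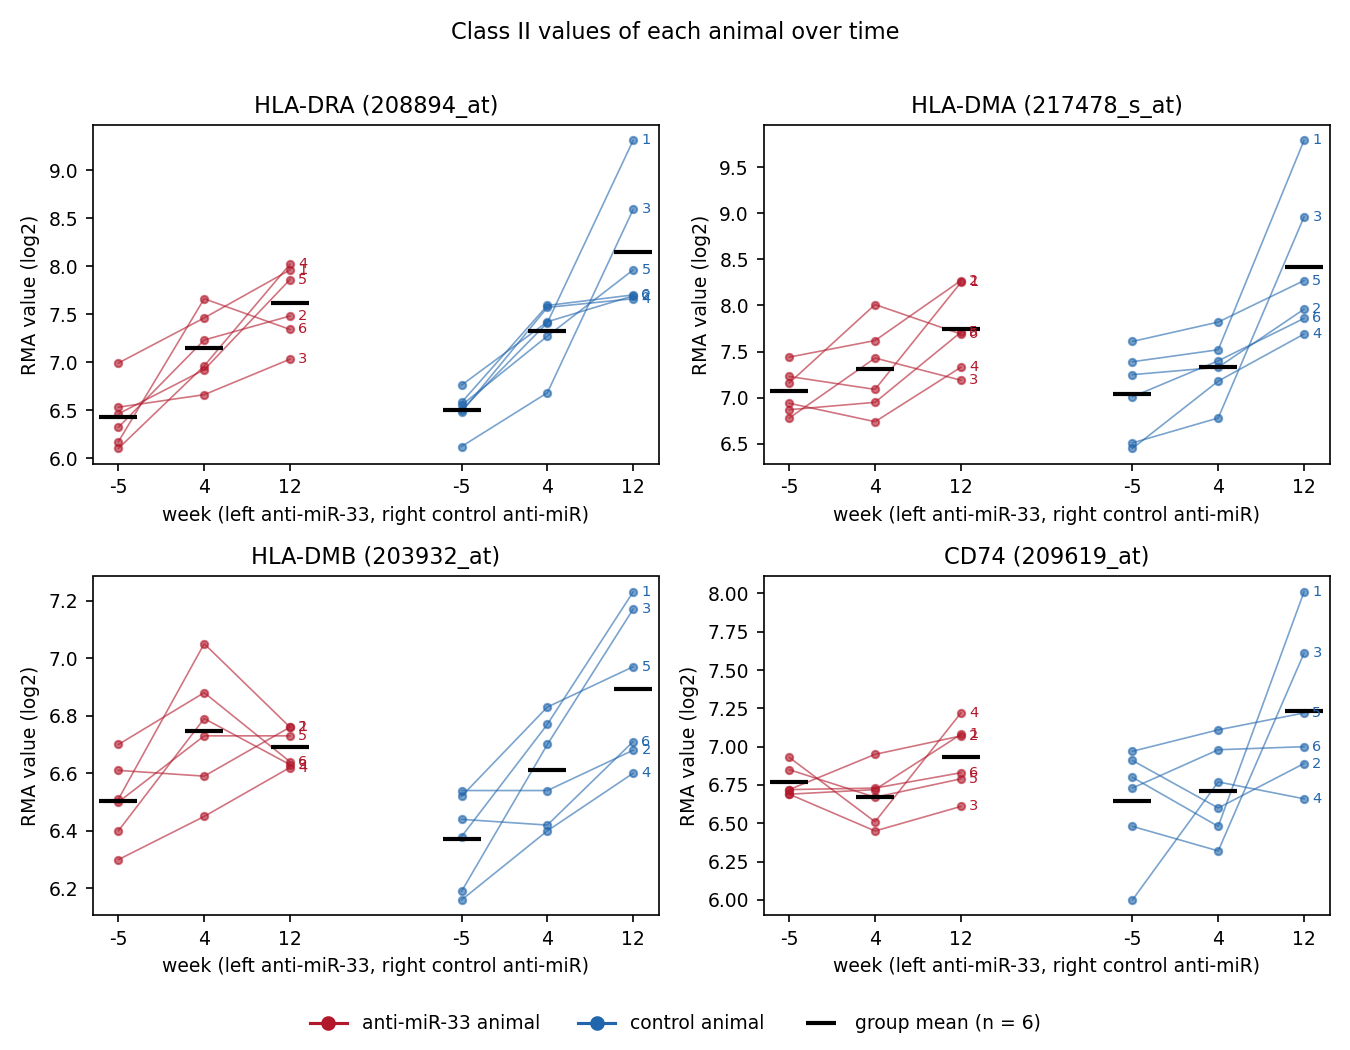
RMA values (y axis, log2) of HLA-DRA, HLA-DMA, HLA-DMB and CD74 by week (x axis), a line for each animal, anti-miR-33 left and control right, with group means as black dashes and animal numbers at week 12. Control animals 1 and 3 hold the highest week 12 values in all 4 panels, reaching 9.31 and 8.59 for HLA-DRA.

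The comparison of anti-miR-33 with control asks whether blocking miR-33 altered these genes beyond what both arms shared. No class II probe set passed the test at any time, and for none of the 13 did the arms fail to overlap. Non-overlapping arms were found for 0.179% of all probe sets at baseline, 0.0916% at week 4 and 0.106% at week 12. Of 13 members, 0 were called at baseline, where 0% of all probe sets were called (0 of 27304), 0 at week 4, where again 0% were called, and 0 at week 12, where 0.00366% were called (1 of 27304). At an unadjusted p under 0.05, limma gave 1 of 13 members at baseline, 2 at week 4 and 3 at week 12, beside 1042, 1400 and 778 of all probe sets.

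At week 12 all 8 genes, taken by their probe set of highest mean, were lower in anti-miR-33 livers than in control livers, with a median difference of -0.25 and none called (adjusted p = 0.999 for each, limma). The median over all tested probe sets was 0. At week 4, 3 of 8 lay above 0 with a median of -0.035, and at baseline 5 of 8 lay above 0 with a median of 0.03. Some members varied together across arrays, so their common sign at week 12 is not 8 separate observations.

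HLA-DMA had the largest of these differences. Its lowest, median and highest values at week 12 were 7.19, 7.70 and 8.27 in anti-miR-33 livers and 7.69, 8.12 and 9.79 in control livers. The groups overlapped, with 4 of the 6 control values inside the anti-miR-33 range and those of control animals 1 and 3 above it. The difference was -0.68 ± 0.26 at week 12, -0.03 ± 0.26 at week 4 and 0.03 ± 0.26 at baseline. The change from baseline to week 12 was 0.67 ± 0.11 in anti-miR-33 animals and 1.39 ± 0.34 in control animals (mean ± SE, n = 6 each), which differed by -0.71 ± 0.34 (adjusted p = 0.999).

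HLA-DRA at week 12 had lowest, median and highest values of 7.03, 7.67 and 8.02 in anti-miR-33 livers and of 7.66, 7.83 and 9.31 in control livers. Control animals 1 and 3 again stood above the whole anti-miR-33 range, and the other control values lay within it. The difference was -0.54 ± 0.22 at week 12, -0.17 ± 0.22 at week 4 and -0.07 ± 0.22 at baseline. The rise from baseline to week 12 was 1.19 ± 0.19 in anti-miR-33 animals and 1.65 ± 0.32 in control animals (mean ± SE, n = 6 each), a difference of -0.47 ± 0.29 (adjusted p = 0.999). Leaving out control animal 1 reduced that difference to -0.24.

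HLA-DMB ran from 6.62 to 6.76 in anti-miR-33 livers and from 6.60 to 7.23 in control livers at week 12. Control animals 1, 3 and 5 lay above the anti-miR-33 range. The difference was -0.20 ± 0.10 at week 12, 0.14 ± 0.10 at week 4 and 0.13 ± 0.10 at baseline. From week 4 to week 12 it changed by -0.06 ± 0.08 in anti-miR-33 animals and by 0.28 ± 0.06 in control animals (mean ± SE, n = 6 each), a difference of -0.34 ± 0.14 (adjusted p = 0.999). It was higher at week 12 than at week 4 in 2 of 6 anti-miR-33 animals and in 6 of 6 control animals.

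CD74 ran from 6.61 to 7.22 in anti-miR-33 livers and from 6.66 to 8.01 in control livers at week 12, a difference of -0.30 ± 0.17. HLA-DPB1 ran from 7.51 to 8.32 in anti-miR-33 livers and from 7.52 to 9.33 in control livers, a difference of -0.33 ± 0.21. For both genes control animals 1 and 3 held the highest values and the others overlapped. HLA-DPA1 differed by -0.13 ± 0.32, HLA-DQA1 by -0.03 ± 0.10 and CIITA by -0.03 ± 0.08.

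Control animals 1 and 3 held the highest week 12 values of HLA-DRA, HLA-DMA, HLA-DMB, CD74 and HLA-DPB1. Leaving out each animal in turn, the week 12 difference ran from -0.64 to -0.31 for HLA-DRA and from -0.83 to -0.41 for HLA-DMA, the smallest being that without control animal 1 for both genes. Without control animal 1 it was also smallest for CD74, at -0.14, for HLA-DPB1, at -0.11, and for HLA-DMB, at -0.14. Other measures of these animals at week 12 were as follows. The mean of 17 class I presentation genes was 9.93 in control animal 1 and 9.55 in control animal 3, against 9.24 to 9.49 in the other control animals and 9.21 to 9.56 in anti-miR-33 animals. The mean of 13 macrophage markers was 7.07 and 6.98 in control animals 1 and 3, within the range of 6.81 to 7.17 of the other control animals. The mean of 8 interferon gamma signalling genes was 6.99 and 6.87 in them, against 6.42 to 6.91 in the other control animals and 6.55 to 6.61 in anti-miR-33 animals. The part of any of these in the class II values was not tested.

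**Figure D3:**
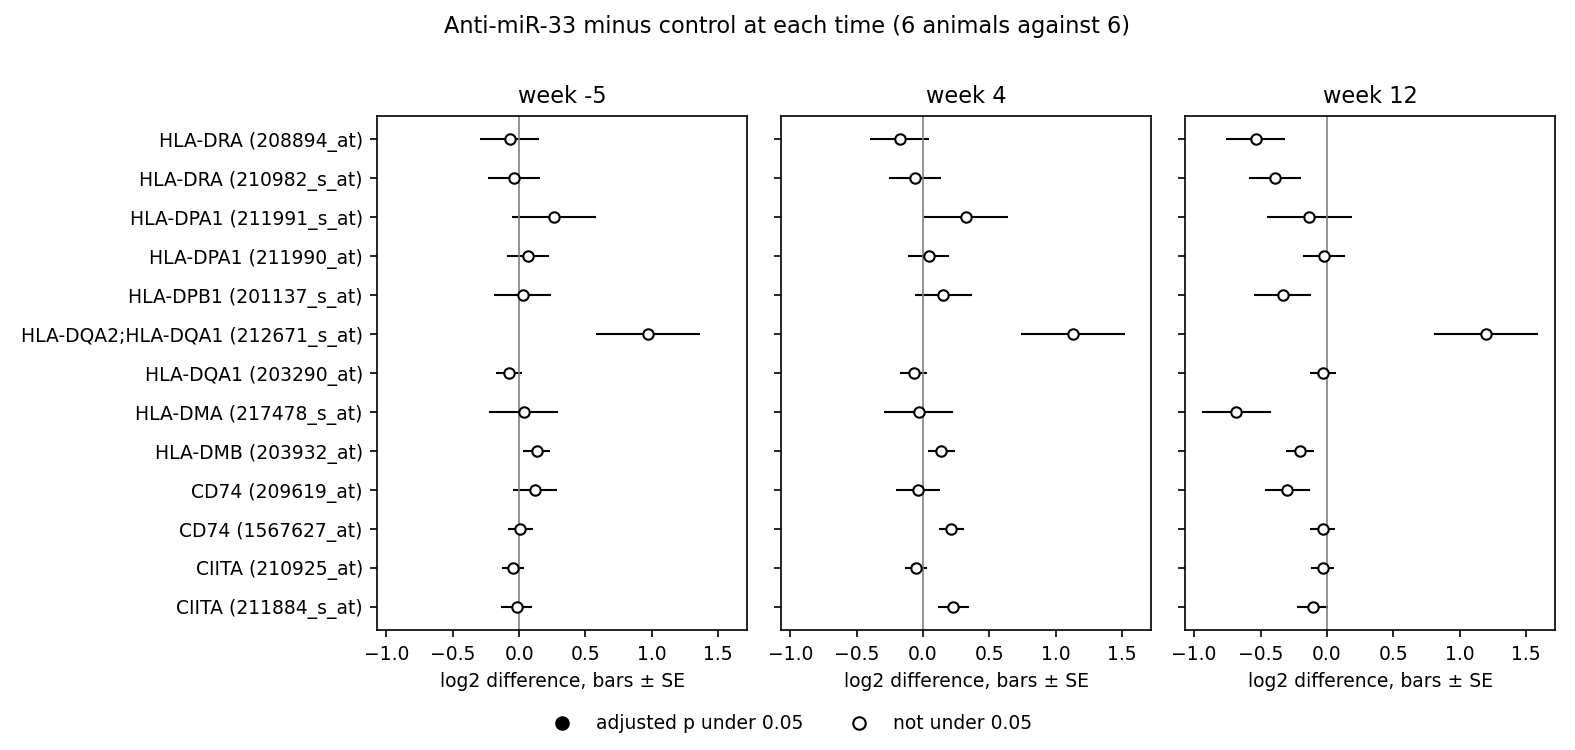
Anti-miR-33 minus control (x axis, log2 difference with standard errors as bars) for the 13 tested class II probe sets (y axis, identifiers in brackets) at each time, 6 animals against 6. No point passed an adjusted p under 0.05. At week 12, 12 of 13 points lie left of 0 and the shared HLA-DQA probe set lies to the right at all 3 times.

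The shared HLA-DQA probe set had the opposite sign, at baseline already. Before treatment its lowest, median and highest values were 4.32, 5.05 and 6.22 in anti-miR-33 animals and 3.59, 4.22 and 4.52 in control animals. The week 12 values were 4.33, 6.31 and 7.74 in anti-miR-33 animals and 4.37, 5.01 and 5.70 in control animals. Anti-miR-33 animals 2, 3, 4 and 5 lay above every control animal at baseline and at week 12, and animal 6 lay within the control range. Anti-miR-33 animal 1 lay within it at baseline and just below it at week 12. The anti-miR-33 mean exceeded the control mean by 0.97 ± 0.39 before treatment, by 1.13 ± 0.39 at week 4 and by 1.20 ± 0.39 at week 12, none called (adjusted p = 0.999, 0.886 and 0.999). Its rise to week 12 differed by 0.23 ± 0.51 between the arms, and by 0.004 without anti-miR-33 animal 4 and 0.45 without anti-miR-33 animal 1.

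The higher of the untested HLA-DQA1 probe sets, with a mean just below the filter, showed the same standing difference. At baseline it ran from 3.82 to 5.41 in anti-miR-33 animals, against 3.66 to 4.25 in control animals. Week 4 values ran from 4.20 to 5.68 in anti-miR-33 animals, against 3.34 to 4.31 in control animals, and week 12 values from 3.94 to 5.45 in anti-miR-33 animals, against 3.67 to 4.24 in control animals. Anti-miR-33 animals 2, 3, 4 and 5 exceeded all control animals at each of these times. The HLA-DQ beta chain gene HLA-DQB1 had 4 tested single-gene probe sets. At week 12 all 4 were lower in anti-miR-33 livers, with differences of -0.30 to -1.07, and none was called. The one farthest from 0 differed by -0.78 ± 0.37 before treatment, -0.78 ± 0.37 at week 4 and -1.07 ± 0.37 at week 12.

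For some class II probe sets, animals kept their high or low values over the times. The correlation between arrays of the same animal, after group means were removed, was 0.71 for the shared HLA-DQA probe set and 0.77 for HLA-DPA1, higher than for 98.7% and 99.3% of all tested probe sets, whose median was 0.13. It was 0.51 for HLA-DPB1, 0.33 for HLA-DMB and 0.28 for HLA-DMA. For HLA-DRA it was -0.05 and for CD74 0.04.

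For HLA-DPA1 the same individuals stayed at the ends of the range. Anti-miR-33 animal 4 had 7.41, 7.32 and 7.81 at baseline, week 4 and week 12, and anti-miR-33 animal 5 had 7.19, 7.38 and 7.34. Anti-miR-33 animal 2 had 5.91, 5.43 and 5.58, and control animal 5 had 5.11, 5.53 and 5.93. A standing difference of this kind between animals is present in every comparison of the arms at 1 time and cancels from the size of changes within animals. It does not fully leave the errors of the fit, which used the same consensus correlation of 0.136 for all probe sets, against 0.77 for HLA-DPA1. From the animals' own changes to week 4, the standard error of HLA-DPA1 was 0.11 (n = 12). The fixed replicate block, given with the HLA-DP values above, takes each animal's level out.

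**Figure D4:**
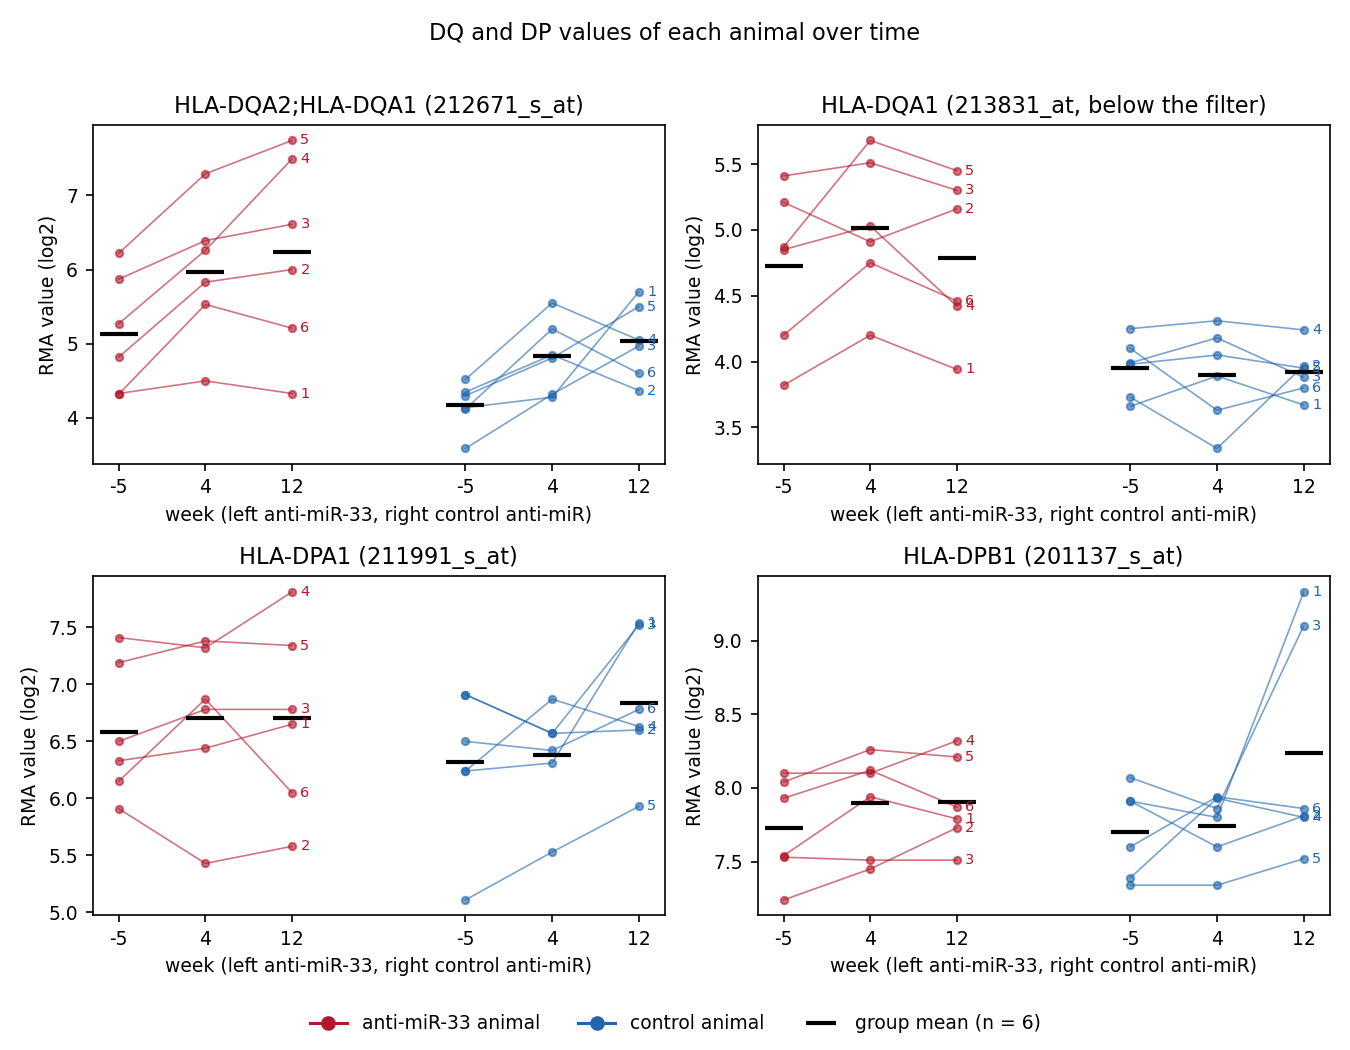
RMA values (y axis, log2) of the shared HLA-DQA probe set, the HLA-DQA1 probe set below the filter, HLA-DPA1 and HLA-DPB1 by week (x axis), a line for each animal, anti-miR-33 left and control right, black dashes for group means. For HLA-DQA the anti-miR-33 means lie above the control means at all 3 times, at 5.14, 5.97 and 6.23 against 4.17, 4.84 and 5.03 for the shared probe set.

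Within groups, some members varied together. After group means were removed, Pearson r over the 36 arrays was 0.81 between the HLA-DRA probe sets, 0.77 between HLA-DMA and HLA-DMB, 0.76 between HLA-DMA and CD74, 0.73 between HLA-DPA1 and HLA-DPB1, and 0.66 between HLA-DRA and HLA-DMA. HLA-DMA and HLA-DPA1 had r = -0.22. Between the tested probe sets of the same gene r was 0.02 for CIITA, 0.20 for CD74 and 0.74 for HLA-DPA1. The arrays share animals, and the values of 1 array share its RNA and normalisation, so these are descriptions. Among all 13634 genes with a tested probe set of their own, r with the mean deviation of the 8 members had a central 95% range of -0.33 to 0.35. The SD of the class II mean was 0.44 in control livers at week 12 and 0.09 to 0.20 in the other groups. Any r with that mean therefore weighs the week 12 control arrays most.

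The non-member genes closest to the class II mean by that measure, over the same 36 arrays, were HLA-DRB6 (0.79), HLA-DRB1 (0.76), WARS1 (0.75), BTN3A1 (0.66), LRP11 (0.62), TYMP (0.61), FAM187B (0.60), BCAM (0.59), MPEG1 (0.57) and FCER1G (0.57). WARS1 encodes the tryptophanyl-tRNA synthetase, a gene known to respond to interferon gamma, and BTN3A1 a butyrophilin seen by gamma delta T cells. MPEG1 encodes perforin-2 of phagocytes and FCER1G the signalling chain of Fc receptors. HLA-DRB6 is annotated as a pseudogene of the DRB family, and its probe set may read transcripts of the other DRB genes.

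Of 11 tested endosomal processing genes, 2 rose and 3 fell from baseline to week 12 (median -0.03), beside 10.2% of all probe sets called higher and 13.9% called lower. From baseline to week 4, 5 rose and 2 fell (median -0.07), beside 16.5% and 18.9%. From week 4 to week 12, 6 rose and 3 fell (median 0.20), beside 12.3% and 13.2%. The genes that rose from baseline to week 12 were CTSC, a dipeptidyl peptidase, at 0.68 ± 0.10 (adjusted p = 8.70e-06) and CTSS, the cathepsin that trims the invariant chain, at 0.69 ± 0.11 (adjusted p = 9.13e-06). CTSL, another cathepsin, fell by 0.25 ± 0.06 and MARCHF8, a ubiquitin ligase that can act on class II molecules, fell by 0.27 ± 0.07. Of 7 costimulation genes, which give T cells their second signal, 0 were called from baseline to week 12.

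Interferon gamma and class I genes were measured beside them. Of 8 tested interferon gamma signalling genes, 3 rose and 1 fell by week 12 (median 0.19): the kinase JAK2 by 0.59 ± 0.10, the chemokine CXCL9 by 0.66 ± 0.12 and the transcription factor IRF1 by 0.33 ± 0.09, while IRF8 fell by 0.19 ± 0.05. Of 17 class I presentation genes, 11 rose and 0 fell (median 0.31), led by the immunoproteasome subunits PSMB8 at 1.09 ± 0.12 and PSMB9 at 0.82 ± 0.14 and by B2M, the class I light chain, at 1.05 ± 0.13. The counts of these lists stand beside the same 10.2% of all probe sets called higher and 13.9% called lower. The lists hold 1 probe set a gene, while these shares are over all 27304. With 1 probe set a gene, 3739 of 13634 genes were called in either direction.

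Markers of the cells that carry class II were counted beside the 10.2% of all probe sets called higher and 13.9% called lower from baseline to week 12. Of 13 tested macrophage markers, 1 rose and 3 fell by week 12 (median -0.13): LYZ, lysozyme, at 0.55 ± 0.12, and CD163, CSF1R and MARCO, receptors of resident macrophages, at -0.33 ± 0.10, -0.20 ± 0.06 and -0.34 ± 0.10. The mean of the 13 ranged from 6.64 to 7.20 at baseline, from 6.65 to 7.06 at week 4 and from 6.57 to 7.20 at week 12. The macrophage markers MSR1, TIMD4 and CLEC4F lay below the filter.

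Of 8 dendritic cell markers 0 rose and 2 fell, of 8 B cell markers 1 rose and 0 fell, and of 12 T and NK cell markers 0 rose and 1 fell. Among the dendritic cell markers XCR1, FCER1A, LAMP3, CCR7 and CLEC4C lay below the filter. Of 8 pan-leukocyte genes 0 rose and 2 fell at the threshold, while 5 lay above 0 and 3 below it (median 0.029). PTPRC, the CD45 antigen, was among those that fell, at -0.75 ± 0.16. Of 12 endothelial markers 0 rose and 9 fell (median -0.72), among them CLEC4G, a lectin of the liver sinusoids, at -1.35 ± 0.11 and the scavenger receptor STAB1 at -0.94 ± 0.08. The part of these cell types in the class II changes was not tested.

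**Figure D5:**
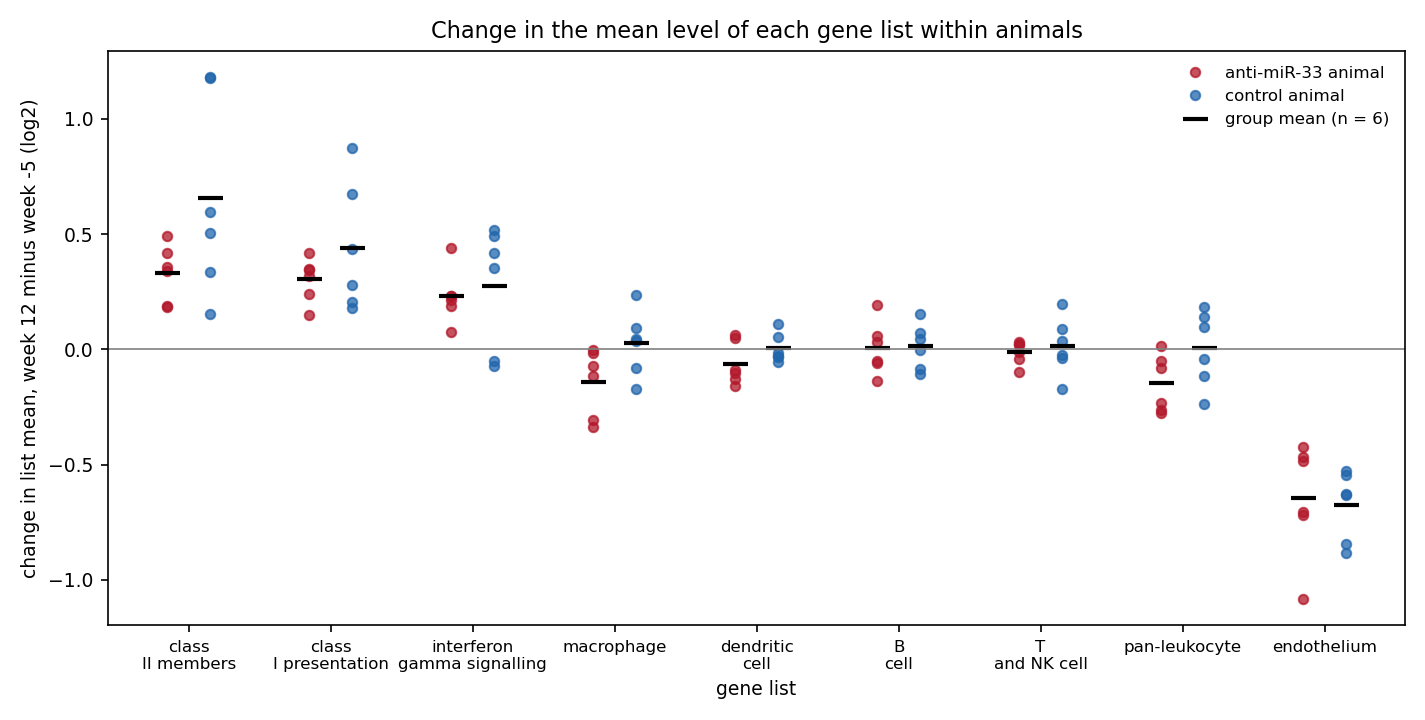
Change of the mean level of each gene list (x axis) from week -5 to week 12 within animals (y axis, log2), a point per animal, anti-miR-33 left of control, black dashes for group means. The mean of the 8 class II members rose in 12 of 12 animals, by 0.33 ± 0.12 in anti-miR-33 animals and 0.66 ± 0.43 in control animals (SD, n = 6 each). The endothelial mean fell in 12 of 12 animals.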

How the data were processed

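The authors deposited log2 values of 54675 probe sets on 36 arrays, made with RMA per the submitters' processing notes. The sources used here give neither its version nor whether the arrays were normalised in 1 run. Such a normalisation takes out any shift common to most transcripts of an array. The number of arrays limits the precision. Gene symbols came from the platform annotation, which can be old: 41097 probe sets named 1 gene, 1801 more than 1, and 11777 have no entry.

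Probe sets other than the 62 controls, with a mean at or above the median, were fitted in limma 3.58.1 under R 4.3.3. The model had a mean for each of 6 groups, and a random block for the animal (consensus correlation 0.136). Each of 9 comparisons was tested two-sided, its p-values adjusted by Benjamini-Hochberg over 27304 probe sets, with a threshold of 0.05. Errors are standard errors from the fit unless an SD is named. Animal identifiers in the labels pair the times. As a check, same-animal deviations from group means over the 2000 most variable probe sets correlated by 0.47, 0.38 and 0.49 (medians for baseline with week 4, baseline with week 12 and week 4 with week 12), the lowest being 0.0998, 0.134 and 0.256. For the same pairs of times, the animal's own array was the best match in 11, 7 and 12 of 12 animals. The match was thus weakest for baseline with week 12. The fit was tested on simulated data.

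All probe sets of a member were named. From other lists, with 1 probe set a gene (highest mean), up to 4 of smallest p in a comparison were named. Likeness named the 10 non-members of highest r. Names outside these were chosen after their values were seen: the DRB, HLA-DOA and HLA-DQB1 probe sets. Members and lists were chosen with earlier results of these data known. Lists of plasma cell, blood, stellate cell and cholangiocyte markers were also counted. From baseline to week 12 they gave 0 higher and 0 lower of 6, 1 and 2 of 5, 0 and 4 of 8, and 0 and 0 of 5. Of all probe sets 10.2% were called higher and 13.9% lower. All shares given beside list counts are over every tested probe set, not over 1 probe set a gene. No sequences are printed, and promoter motifs were not searched.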

Additional observations from a re-analysis of the deposited data

Results flagged for a closer look

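Of 78 groups of 6 arrays checked over the 13 tested probe sets, 4 held an array whose gap to the nearest other, over the range of the group, passed Dixon's critical value of 0.625. Chance alone gives about 1 in 20 groups. All 4 arrays were from control animals. HLA-DRA at week 4 was 6.68 in control animal 3, against 7.27 to 7.59 in the others, and the same animal held the second highest control value at week 12. HLA-DPA1 at baseline was 5.11 in control animal 5, against 6.24 to 6.91, and that animal remained the lowest control at weeks 4 and 12. The second tested probe set of CIITA at baseline was 5.17 in control animal 5, against 4.45 to 4.64. CIITA at week 12 was 5.77 in control animal 3, against 5.45 to 5.52. No cause of these values was tested.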

How the results depend on the processing

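Settings tried were no filter, a 75th percentile filter, 1 probe set a gene, centring or quantile normalisation of arrays, array weights, no replicate block, the animal as a fixed replicate block, the 3′ minus 5′ value as a covariate, leaving out the week 4 array of control animal 1 or the week 12 array of control animal 5, and leaving out each animal. HLA-DRA, HLA-DMA, HLA-DMB, CD74 and the shared HLA-DQA probe set kept their rise to week 12 under all of these that tested them. With 1 probe set a gene, 4871, 3739 and 3759 genes were called from baseline to week 4, baseline to week 12 and week 4 to week 12, and 2 of 8 members from baseline to week 4. The 75th percentile filter gave 5981 from baseline to week 4. The covariate gave 1186 from baseline to week 12 and 2 members to week 4, where HLA-DMB had an adjusted p of 0.0658. With no replicate block the shared HLA-DQA probe set had 0.0546 at week 4. With the fixed replicate block 9718, 6817 and 7128 probe sets were called, and 1 for the difference in change to week 4. HLA-DPB1 passed at week 12 with the 75th percentile filter (adjusted p = 0.0381) and without the week 12 array of control animal 5 (0.0273). The 1 call between arms at week 12 became 0 with 1 probe set a gene and without that array, and was 0 to 1 when animals were left out. Leaving out animals gave 3 to 5 members called from week 4 to week 12 and 6 to 7 from baseline to week 12.

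Signs turned for small, uncalled differences. HLA-DRA between arms at baseline was 0.013 with the covariate, and CD74 to week 4 was 0.108. Array weights gave -0.088 for HLA-DPB1 between arms at baseline, 0.041 for HLA-DMA at week 4 and -0.018 for CIITA to week 12. For the difference in change to week 4, centring gave -0.003 for HLA-DMB and -0.008 for HLA-DQA1, quantile normalisation gave -0.001 for HLA-DQA1, and leaving out the week 4 array of control animal 1 gave -0.038 for HLA-DQA1 and 0.017 for the CD74 change. When animals were left out, arms at baseline ran from -0.011 to 0.183 (CD74), -0.091 to 0.005 (CIITA), -0.084 to 0.148 (HLA-DMA) and -0.047 to 0.125 (HLA-DPB1). At week 4 they ran from -0.116 to 0.042 (CD74) and -0.172 to 0.082 (HLA-DMA), and at week 12 from -0.079 to 0.016 (CIITA), -0.353 to 0.093 (HLA-DPA1) and -0.068 to 0.016 (HLA-DQA1). Changes ran from -0.087 to 0.022 (CD74 to week 4), -0.088 to 0.002 (HLA-DQA1 to week 4) and -0.020 to 0.035 (CIITA to week 12). Differences in change to week 4 ran from -0.077 to 0.059 (CIITA), -0.188 to 0.022 (HLA-DMA), -0.052 to 0.061 (HLA-DMB), -0.058 to 0.182 (HLA-DPA1), -0.077 to 0.103 (HLA-DQA1) and -0.259 to 0.013 (HLA-DRA). To week 12 they ran from -0.054 to 0.056 (CIITA) and -0.028 to 0.156 (HLA-DQA1), and between weeks 4 and 12 from -0.003 to 0.055 (CIITA), -0.046 to 0.103 (HLA-DQA1) and -0.127 to 0.311 (shared HLA-DQA). The cause was not tested for any of these. The 6 class II probe sets below the filter lay where signal over background is weakest, and their changes are values with no test.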

Other observations

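At week 12, 11 of 13 macrophage markers were lower in anti-miR-33 than in control livers, with a median of -0.13. Of 8 pan-leukocyte genes 7 were lower, with a median of -0.17. Among other cell type lists, 10 of 12 endothelial, 9 of 12 T and NK cell, 6 of 8 stellate cell and 4 of 6 plasma cell genes were lower. All 15 hepatocyte genes were higher (median 0.15), as were 4 of 5 cholangiocyte markers. The mean of the 15 hepatocyte genes ran from 12.45 to 12.61 in anti-miR-33 livers and from 11.94 to 12.55 in control livers. The highest value of the week 12 array of control animal 5 was only 13.8, and its part in the hepatocyte difference was not tested. Dendritic cell and B cell markers had 4 of 8 on each side. None of these was called, and the median over all tested probe sets was 0. These lists share arrays with the class II comparison, and their part in it was not tested.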
